A study of Mus musculus with 6 samples.

Results

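The liver makes fatty acids from sugar and other fuels when food is plentiful, and 10 genes of this programme were followed in livers of ethanol-fed mice with and without hepatocyte ACSS2. The set holds the transcription factor genes Srebf1 and Mlxipl and 8 genes that serve fatty acid synthesis or lipid handling under their control, namely Acaca, Acacb, Fasn, Me1, Thrsp, Pklr, Gpam and Pnpla3. The genes were picked by symbol, and all 10 were present among the 16135 genes of the deposited table. All 10 passed the expression filter of a mean of at least 1 FPKM (fragments scaled to gene length and library size) over the 6 libraries.

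Bulk liver RNA was sequenced from 3 ACSS2-HKO libraries, from mice made to lack ACSS2 in hepatocytes, and from 3 ACSS2-flox libraries, from mice carrying the floxed Acss2 gene, which served as controls. ACSS2 turns acetate, the end product of alcohol oxidation, into acetyl-CoA. Both groups had spent 10 days on liquid Lieber-Decarli food with ethanol and then had 1 ethanol binge, so no library came from an ethanol-free liver. The sources used here do not give the Cre driver, the age and sex of the mice, or whether each library came from a separate animal, so p-values measure the spread between these libraries, which may be partly technical.

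Srebf1 encodes the SREBP1 proteins. The SREBP1c form dominates in liver, rises with insulin, and is held in the endoplasmic reticulum membrane by SCAP and INSIG until it is cut and moves to the nucleus. Mlxipl encodes ChREBP, which responds to glucose metabolites and binds paired E-boxes (carbohydrate response elements, ChoREs) with its partner MLX. Together these factors drive the enzymes that carry carbon from glycolysis to malonyl-CoA, palmitate and triglyceride, and the programme is a known contributor to alcoholic fatty liver.

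The promoters of Pklr, Mlxipl and Fasn are shown because these 3 genes made up the 2 pairs with the most similar course over the libraries. Each run is the 250 bases before a RefSeq transcription start, on the strand of the gene, in build GRCm38.p6 (mm10), with motif matches in capitals. Pklr and Mlxipl each have 2 starts in the RefSeq table, and for Pklr the downstream start, which gives the liver form, is printed.
Pklr, downstream start, chr3:89136373-89136622, plus strand: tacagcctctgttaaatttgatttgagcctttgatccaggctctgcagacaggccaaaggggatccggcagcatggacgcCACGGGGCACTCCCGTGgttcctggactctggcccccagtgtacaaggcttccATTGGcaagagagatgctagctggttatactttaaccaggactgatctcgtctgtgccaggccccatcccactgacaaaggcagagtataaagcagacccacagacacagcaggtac
Mlxipl, upstream start, chr5:135089640-135089889, plus strand: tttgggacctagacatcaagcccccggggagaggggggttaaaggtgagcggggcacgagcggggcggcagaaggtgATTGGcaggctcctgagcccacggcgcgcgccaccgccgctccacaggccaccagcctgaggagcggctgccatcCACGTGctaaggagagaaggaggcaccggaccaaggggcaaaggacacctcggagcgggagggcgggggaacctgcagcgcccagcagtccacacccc
Mlxipl, downstream start, chr5:135106641-135106890, plus strand: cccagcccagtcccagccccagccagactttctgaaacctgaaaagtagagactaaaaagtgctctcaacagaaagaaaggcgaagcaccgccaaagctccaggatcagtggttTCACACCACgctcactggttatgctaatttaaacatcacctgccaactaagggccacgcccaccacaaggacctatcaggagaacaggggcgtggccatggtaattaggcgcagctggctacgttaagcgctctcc
Fasn, chr11:120824548-120824797, minus strand: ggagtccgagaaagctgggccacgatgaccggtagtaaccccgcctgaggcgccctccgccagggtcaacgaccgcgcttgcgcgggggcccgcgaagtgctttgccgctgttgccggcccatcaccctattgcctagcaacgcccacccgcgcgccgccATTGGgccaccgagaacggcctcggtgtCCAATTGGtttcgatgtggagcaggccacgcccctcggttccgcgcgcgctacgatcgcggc

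The capitals mark matches to 5 motifs, searched on both strands of these windows. The long capital run in the Pklr promoter begins 170 bases before the start and matches the ChoRE consensus, in which the ends of a pair of E-boxes face each other. That pattern occurred in 1 of the 16 promoters listed for the 10 genes, and in 0.454% of all 32851 RefSeq promoters of the same length. The upstream Mlxipl promoter held the E-box CACGTG 98 bases before the start, a motif of 6.02% of all promoters. The downstream Mlxipl promoter held TCACACCAC, a match to the sterol regulatory element pattern TCACNCCAC found in 1.05% of all promoters. The CCAAT box, bound by NF-Y, a usual partner of SREBP, was present in 10 of the 16 promoters, against 33.8% of all promoters, and the Fasn promoter held it 3 times, of which 2 matches overlap. The related E-box CATGTG was present in 3 of the 16 promoters, in starts of Acacb, Me1 and Srebf1, against 12.3% of all promoters, and in none of the windows printed. These matches describe the sequence only.

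The 10 genes were lower, on balance, in ACSS2-HKO liver, but no single gene passed the test, and for Mlxipl, Acaca, Fasn, Me1 and Pklr only 2 of the 3 ACSS2-flox libraries stood above all ACSS2-HKO libraries. Fasn, the fatty acid synthase gene, averaged 88.0 ± 32.3 FPKM in ACSS2-HKO and 160 ± 74.4 FPKM in ACSS2-flox (SD, n = 3 each). Of the 10 genes, 9 had a negative log2 fold change (ACSS2-HKO minus ACSS2-flox), against 34% of the 9818 genes tested. Their median was -0.44, beside 0.10 for all genes tested. The genes were chosen with earlier results of these data known, so count and median are descriptive. Of the 9, Acaca stood at only -0.05, and Pnpla3 passed the filter through its high value in ACSS2-flox replicate 1. With a filter at 5 FPKM, which Pnpla3 did not reach, 8 of 9 were negative with a median of -0.40. Acacb, the acetyl-CoA carboxylase gene of the mitochondrial surface, was the gene with a positive value, at 0.52.

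By limma on log2(FPKM + 1) with Benjamini-Hochberg adjustment over all genes, 0 of the 10 genes and 0 of 9818 genes (0%) passed an adjusted p of 0.05. At an unadjusted p under 0.05, 0 of the 10 genes were called, while over all genes 147 were lower (1.5%) and 598 higher (6.09%). Under other settings some of the 10 were: Fasn (unadjusted p = 0.0326) and Gpam (0.0401) were lower with median-ratio scaling, and Fasn (0.0171) with a replicate block, none past adjustment. Over all 9818 genes, 347 and 172 were lower in these 2 settings. Leaving out 1 library gave 0 to 4 lower genes of the 10. There were 1 without ACSS2-HKO replicate 1, 2 without ACSS2-HKO replicate 2 and 4 without ACSS2-flox replicate 1. Over all 9818 genes, 141, 149 and 460 were lower in these fits. Acacb alone was higher (0.0295), without ACSS2-flox replicate 2, where 535 of all genes were higher. The groups did not overlap for 1 of the 10 genes, Gpam, which was lower, against 2.94% of all genes lower without overlap. Limma voom on fragment counts recovered from the FPKM values also called 0 genes after adjustment, with 137 lower and 560 higher at an unadjusted p under 0.05. How many were higher and how many lower depended on scaling. Median-ratio scaling gave 347 lower and 317 higher, and shifted the median of all genes to -0.04. The median of the 10 genes was then -0.60, and 9 of 10 were negative under every scaling tried, although Acaca was then as close to 0 as -0.002 in TPM.

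The libraries were of similar size, with implied totals of 35362997 to 39474527 fragments in ACSS2-HKO and 33717125 to 38321306 in ACSS2-flox. ACSS2-flox replicate 1 stood farthest from the others on the first principal component, followed by ACSS2-HKO replicate 3. Acss2 itself read 50.6, 38.4 and 45.7 FPKM in ACSS2-HKO and 87.8, 61.5 and 58.5 FPKM in ACSS2-flox. It was lower without overlap but far from absent (limma adjusted p = 0.637). The ratio of the group means was 0.648, and 0.748 without ACSS2-flox replicate 1. The table has 1 value per gene for whole liver, and the source of the remaining Acss2 signal was not tested. Hepatocyte markers were abundant in every library, with Alb between 38187 and 59759 FPKM.

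**Figure D1:**
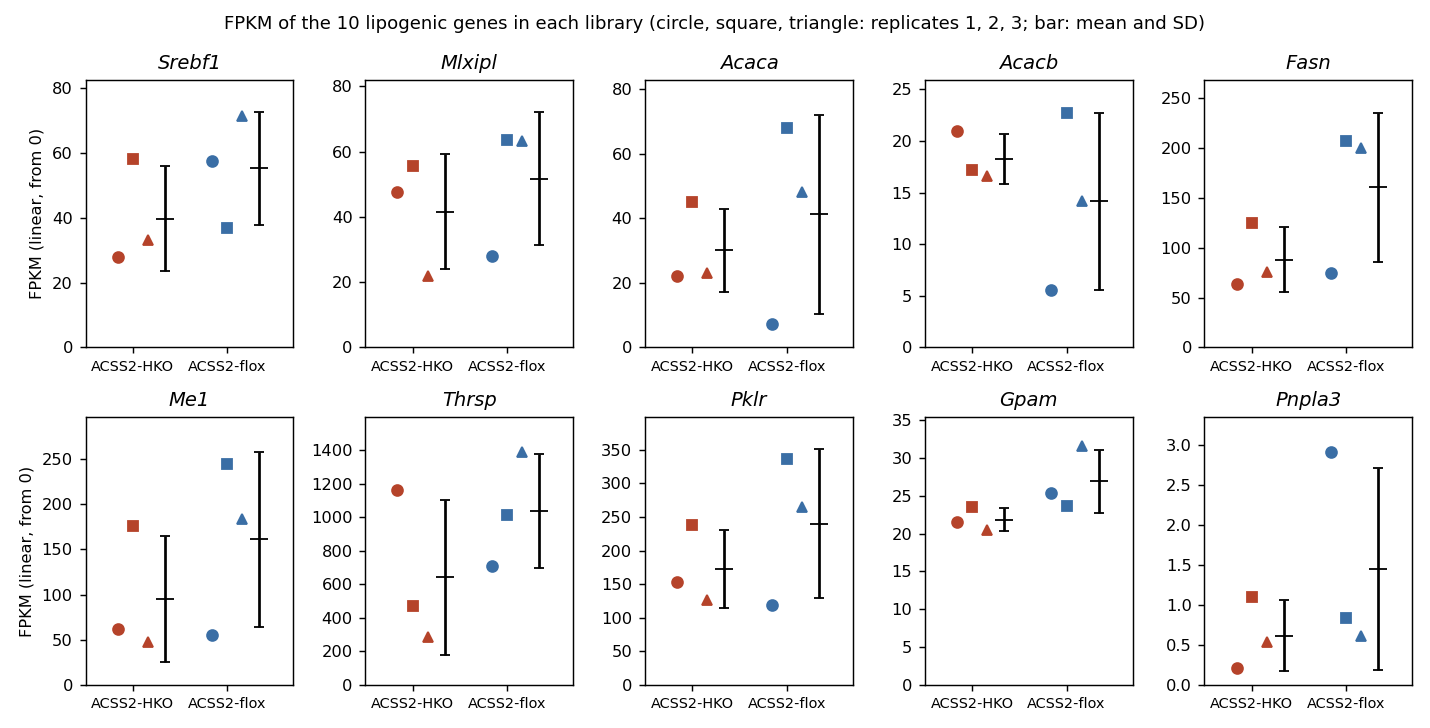
FPKM of each of the 10 genes on linear axes from 0, ACSS2-HKO on the left and ACSS2-flox on the right, with symbols for replicates 1, 2 and 3 and a bar for the mean and SD. For Acaca, Fasn, Me1 and Pklr, ACSS2-flox replicates 2 and 3 stand at the top and ACSS2-flox replicate 1 lies among or below the ACSS2-HKO libraries.

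Srebf1 (chromosome 11, 60199089 to 60222581, minus strand) read 28.0, 58.2 and 33.2 FPKM in ACSS2-HKO replicates 1, 2 and 3, against 57.6, 36.9 and 71.5 FPKM in ACSS2-flox replicates 1, 2 and 3. ACSS2-HKO replicates 1 and 3 were the lowest of all, while ACSS2-HKO replicate 2 lay within the control range. The log2 fold change was -0.49 ± 0.32 (standard error here and below), with a 95% interval of -1.23 to 0.26 and a limma adjusted p of 0.734. The table has a single value per gene, so the SREBP1a and SREBP1c transcripts, which start from different first exons, were not separated.

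Mlxipl (chromosome 5, 135089890 to 135138382, plus strand) read 47.5, 55.5 and 21.8 FPKM in ACSS2-HKO, against 28.2, 63.5 and 63.4 FPKM in ACSS2-flox. The 2 high ACSS2-flox libraries exceeded every ACSS2-HKO library, and the remaining control was the second lowest of the 6. The log2 fold change was -0.32 ± 0.41 (interval -1.26 to 0.63, limma adjusted p = 0.877), -0.70 without ACSS2-flox replicate 1 and 0.08 without ACSS2-HKO replicate 3. The forms ChREBP-alpha and ChREBP-beta, which come from different starts, were likewise counted together.

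Pklr, the liver pyruvate kinase gene and a classical ChREBP target, ends glycolysis upstream of lipogenesis (chromosome 3, 89136142 to 89146784). It read 153, 238 and 126 FPKM in ACSS2-HKO, against 119, 336 and 264 FPKM in ACSS2-flox. Its 6 values stood in the same order as those of Mlxipl, except that the 2 lowest libraries changed places. Its log2 fold change was -0.40 ± 0.40 (interval -1.31 to 0.51, limma adjusted p = 0.832), and -0.84 without ACSS2-flox replicate 1.

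Me1 encodes cytosolic malic enzyme, which supplies NADPH for chain building (chromosome 9, 86581371 to 86695953). It read 61.7, 176 and 47.7 FPKM in ACSS2-HKO, against 55.1, 245 and 184 FPKM in ACSS2-flox. Within ACSS2-HKO, replicate 2 was 3.21 times the mean of the other 2 libraries, the widest such gap of the 10 genes. Its log2 fold change was -0.75 ± 0.62 (interval -2.16 to 0.67, limma adjusted p = 0.788). It was -1.39 without ACSS2-flox replicate 1 and -1.31 without ACSS2-HKO replicate 2, but -0.32 without ACSS2-flox replicate 2 and -0.38 without ACSS2-HKO replicate 3.

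Acaca encodes ACC1, the cytosolic carboxylase that makes the malonyl-CoA used for fatty acid synthesis (chromosome 11, 84129672 to 84401651). It read 22.1, 44.9 and 23.1 FPKM in ACSS2-HKO, against 7.40, 68.0 and 48.3 FPKM in ACSS2-flox. The control group thus held both the lowest value and the 2 highest, a 9.19-fold range. By means ACSS2-HKO stood at 30.0 ± 12.9 and ACSS2-flox at 41.2 ± 30.9 FPKM (SD, n = 3 each), while the log2 fold change was only -0.05 ± 0.70 (interval -1.66 to 1.55, limma adjusted p = 0.991). It turned to 0.53 without ACSS2-flox replicate 2 and deepened to -0.99 without ACSS2-flox replicate 1.

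Acacb encodes ACC2, whose malonyl-CoA restrains fatty acid entry into mitochondria (chromosome 5, 114146535 to 114250761). It read 21.0, 17.1 and 16.6 FPKM in ACSS2-HKO, against 5.55, 22.7 and 14.2 FPKM in ACSS2-flox. The 3 ACSS2-HKO values were close together, between the 2 higher controls. The log2 fold change of 0.52 ± 0.41 (interval -0.42 to 1.46, limma adjusted p = 0.775) was 0.01 without ACSS2-flox replicate 1. The interval without that library ran from -0.52 to 0.54.

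Fasn, which builds palmitate from malonyl-CoA (chromosome 11, 120805846 to 120824547), had the smallest p of the 10 genes. It read 64.0, 125 and 75.3 FPKM in ACSS2-HKO, against 74.6, 207 and 199 FPKM in ACSS2-flox. A pair of controls exceeded all 3 ACSS2-HKO libraries, and ACSS2-flox replicate 1 lay between ACSS2-HKO replicates 1 and 3. Its log2 fold change was -0.78 ± 0.42 (interval -1.73 to 0.17, limma adjusted p = 0.675). Once ACSS2-flox replicate 1 was left out it was -1.26 ± 0.29, with an unadjusted p of 0.00384 and a limma adjusted p of 0.405. Leaving out single libraries moved it between -1.26 and -0.53.

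Thrsp encodes Spot 14, a small protein that raises the activity of the lipogenic enzymes (chromosome 7, 97412938 to 97417730), and it was the most abundant of the 10 per length. It read 1165, 472 and 288 FPKM in ACSS2-HKO, against 708, 1014 and 1393 FPKM in ACSS2-flox. Unlike Fasn, Me1 and Pklr it was highest, among ACSS2-HKO libraries, in replicate 1 and not in replicate 2. ACSS2-HKO minus ACSS2-flox was -0.88 ± 0.49 on the log2 scale (interval -1.996 to 0.227, limma adjusted p = 0.682). It was -1.44 without ACSS2-HKO replicate 1 and -0.43 without ACSS2-HKO replicate 3.

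Gpam encodes GPAT1, the mitochondrial acyltransferase that commits fatty acids to triglyceride (chromosome 19, 55067268 to 55127238). It read 21.5, 23.6 and 20.5 FPKM in ACSS2-HKO, against 25.4, 23.7 and 31.6 FPKM in ACSS2-flox. Every ACSS2-HKO library lay below every ACSS2-flox library, although ACSS2-HKO replicate 2 and ACSS2-flox replicate 2 were nearly equal. Its log2 fold change of -0.28 ± 0.18 (interval -0.69 to 0.13, limma adjusted p = 0.725) was small and the exact two-sided permutation p was 0.1, the least that 3 against 3 libraries allow. Its values kept within a 1.54-fold range, the narrowest of the 10. It was -0.16 without ACSS2-flox replicate 3.

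Pnpla3, a lipid droplet protein gene under SREBP1c and ChREBP control (chromosome 15, 84167837 to 84187236), was at the edge of the filter with a mean of 1.03 FPKM. It read 0.211, 1.09 and 0.540 FPKM in ACSS2-HKO, from 35, 184 and 100 fragments, against 2.91, 0.831 and 0.607 FPKM in ACSS2-flox, from 460, 145 and 109 fragments. ACSS2-flox replicate 1, the lowest or second lowest library for 6 of the other 9 genes, was the highest here and carried the gene past the filter. The difference was -0.52 ± 0.35 on the log2 scale (interval -1.32 to 0.28, limma adjusted p = 0.735) and -0.12 without ACSS2-flox replicate 1. The pseudocount of 1 compresses so low a gene: with a pseudocount of 0.1 the value was -1.02 and by voom -1.14.

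**Figure D2:**
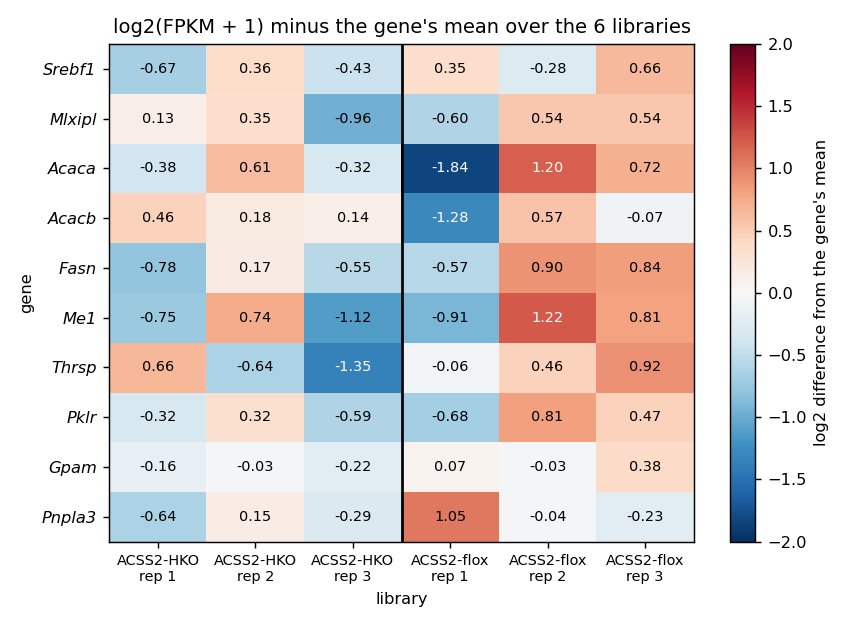
Heat map of log2(FPKM + 1) minus each gene's mean over the 6 libraries, ACSS2-HKO in the left 3 columns and ACSS2-flox in the right 3. ACSS2-flox replicates 2 and 3 are high for Mlxipl, Acaca, Fasn, Me1 and Pklr, whereas Pnpla3 is highest in ACSS2-flox replicate 1. Srebf1 is above its mean in ACSS2-flox replicates 1 and 3 and in ACSS2-HKO replicate 2.

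The genes varied more over the 6 libraries than most genes did. The range of log2(FPKM + 1) over the 6 libraries was 3.04 for Acaca, 2.34 for Me1 and 2.27 for Thrsp, beside a median of 0.73 for all genes tested. For 9 of the 10 genes this range was wider than in at least 86.6% of tested genes, while that of Gpam (0.60) was wider than in 35.0%. The median of the 10 centred log2 values was -0.35, 0.25 and -0.49 in ACSS2-HKO replicates 1, 2 and 3, against -0.59, 0.56 and 0.60 in ACSS2-flox replicates 1, 2 and 3. ACSS2-HKO replicate 2 and ACSS2-flox replicates 2 and 3 were thus the high libraries of the set, and the other 3, 2 of them ACSS2-HKO, were the low ones. Counted as recovered fragments, the 10 genes took 0.351%, 0.444% and 0.242% of the ACSS2-HKO libraries, against 0.280%, 0.665% and 0.649% of the ACSS2-flox libraries. The highest value was in an ACSS2-flox library for all 10 genes, in replicate 2 for 6, in replicate 3 for 3 and in replicate 1 for Pnpla3. For Mlxipl, ACSS2-flox replicates 2 and 3 were nearly equal (63.5 and 63.4 FPKM). The same count was not made over all genes, so it only describes these 10.

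By Euclidean distance between centred log2 profiles over the 6 libraries, the closest pairs were Fasn with Pklr (0.63), Mlxipl with Pklr (0.65) and Srebf1 with Gpam (0.82). Fasn with Me1 stood at 0.94 and Srebf1 with Pnpla3 at 1.18, and Gpam was as near to Pklr (1.25) and Mlxipl (1.26) as to Pnpla3 (1.26). The farthest pair was Acaca with Pnpla3 (3.33), which ran in opposite directions in ACSS2-flox replicate 1. These distances describe the 6 libraries only. The genes outside the set that lay nearest to its median profile were Zfpm1 (0.195), Osbpl8 (0.249), Ttl (0.285), Mme (0.326), Ttc7b (0.327), Rdx (0.349), Gabarapl1 (0.376) and Akr1c19 (0.388), where the median distance of all tested genes was 1.22.

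**Figure D3:**
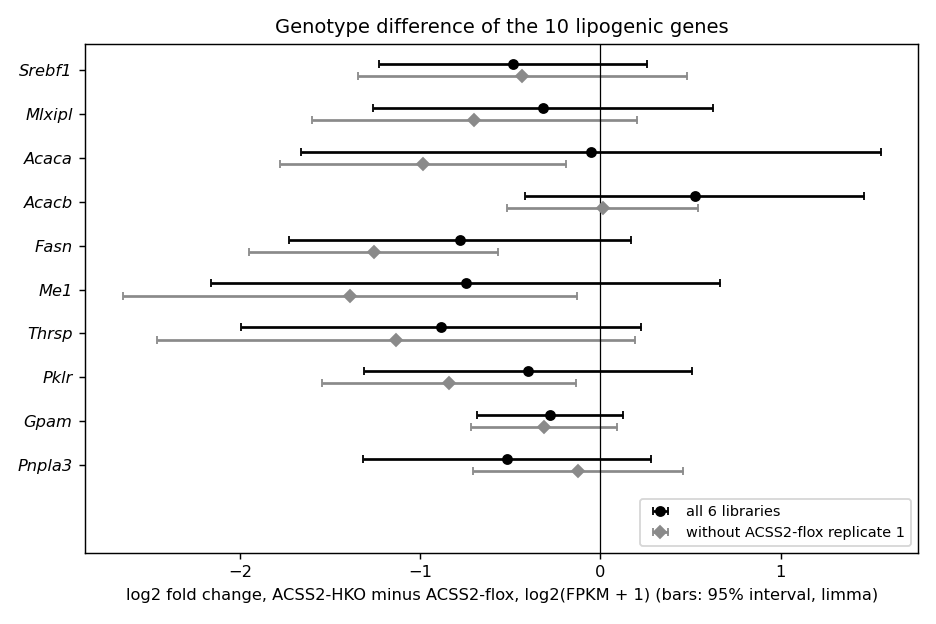
Log2 fold change of each gene, ACSS2-HKO minus ACSS2-flox, with 95% limma intervals, for all 6 libraries (circles) and without ACSS2-flox replicate 1 (diamonds). With all libraries every interval spans 0, and without that replicate the intervals of Acaca, Fasn, Me1 and Pklr lie below 0 before adjustment. That replicate had the lowest median of the set among the 6 libraries.

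Without ACSS2-flox replicate 1, 6 of the 10 genes were lower in every ACSS2-HKO library than in both remaining controls (Mlxipl, Acaca, Fasn, Me1, Pklr and Gpam), against 14.6% of all genes tested. That library had the lowest median of the 10 centred log2 values (-0.59). Leaving it out therefore raises the control means of most of the genes, and these counts are no separate support. At an unadjusted p under 0.05, 4 of the 10 were lower (Acaca, Fasn, Me1 and Pklr), against 4.69% of all genes, and none of the 10 passed limma with adjustment, as 0 of 9818 genes did. Relative to the mean of ACSS2-flox replicates 2 and 3, ACSS2-HKO averaged 0.433 times for Fasn, 0.443 times for Me1, 0.517 times for Acaca and 0.573 times for Pklr. For Acacb the ratio was 0.988. The median of the 10 log2 fold changes was -0.77 without that library and -0.44 with it. Without ACSS2-flox replicate 2 instead, the median was -0.34. In that fit 0 of the 10 were lower and 1 was higher at an unadjusted p under 0.05, against 162 lower and 535 higher of 9818 genes.

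ACSS2-flox replicate 1 also differed from the other controls in a way that followed gene length. Its log2(FPKM + 1) stood 0.28 above the mean of ACSS2-flox replicates 2 and 3 in the median of the shortest decile of tested genes, and at -0.55 in the longest decile, from 7611 bases. Acaca (10368 bases), Fasn (10434 bases) and Acacb (9467 bases) belong to that decile, and their own differences were -2.80, -1.43 and -1.53. Me1 (3654 bases) stood at -1.93 where its decile had -0.34, and Thrsp (1102 bases) at -0.75 where its decile had 0.28. Srebf1, Gpam and Pnpla3, of 4905, 6616 and 4689 bases, stood at 0.16, -0.10 and 1.19, above the medians of their deciles. The other 7 genes (Mlxipl, Acaca, Acacb, Fasn, Me1, Thrsp and Pklr) stood below the median of their decile in this library, and the part of gene length in their differences was not tested.

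**Figure D4:**
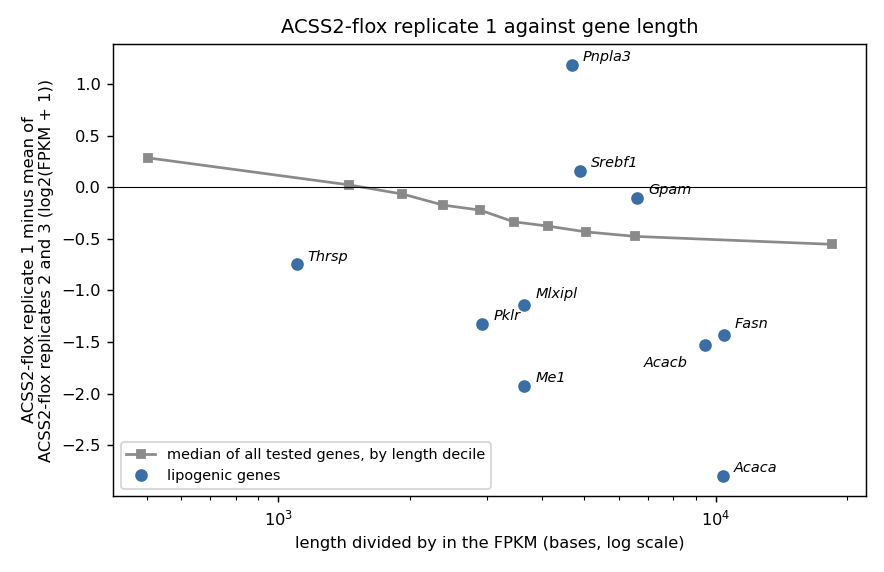
ACSS2-flox replicate 1 minus the mean of ACSS2-flox replicates 2 and 3, on the log2(FPKM + 1) scale, against the gene length used for FPKM (log axis). Squares joined by a line give the median of all tested genes by length decile, from 0.28 in the shortest to -0.55 in the longest, and circles give the 10 genes.

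Genes around the set were read from lists chosen with earlier results of these data known, without the 10 genes themselves. For each count of negative genes in these lists, the share over all genes tested was 34%. Desaturases and elongases finish the products of Fasn, and of 11 tested, 8 were negative. Their median log2 fold change was -0.40, beside 0.10 for all genes, and -0.21 without ACSS2-HKO replicate 3. At an unadjusted p under 0.05, 3 of the 11 were lower, against 1.5% of all genes. The delta-5 desaturase gene Fads1 read 161, 156 and 132 FPKM in ACSS2-HKO and 287, 263 and 220 FPKM in ACSS2-flox (log2 fold change -0.77 ± 0.19, limma adjusted p = 0.554). The delta-6 desaturase gene Fads2 had -0.79 ± 0.26. The delta-9 desaturase gene Scd1, a joint SREBP1c target, had -1.33 ± 0.52 with overlapping groups. Fads2 and Scd1 both had a limma adjusted p of 0.637.

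Acetyl-CoA and NADPH supply had 9 of 12 tested genes negative and a median of -0.08, which was -0.24 without ACSS2-flox replicate 1, -0.21 without both that library and ACSS2-HKO replicate 3, -0.04 without ACSS2-HKO replicate 3 alone and -0.25 with median-ratio scaling. Slc25a1, the citrate exporter that brings acetyl units out of mitochondria, read 136, 152 and 111 FPKM in ACSS2-HKO and 175, 173 and 168 FPKM in ACSS2-flox. Idh1, an NADPH-making isocitrate dehydrogenase gene, read 140, 143 and 142 FPKM in ACSS2-HKO and 265, 165 and 154 FPKM in ACSS2-flox. Neither overlapped between the groups, and their limma adjusted p-values were 0.668 and 0.686. With Acss2 itself, 3 of the 12 genes were lower without overlap, against 2.94% of all genes, and 1, Acss2, was lower at an unadjusted p under 0.05, against 1.5%.

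The 3 lists of genes that control the 2 factors had medians near 0, whose sign changed with the libraries included. Of 21 genes of SREBP processing and Srebf1 transcription, 9 were negative, the median was 0.07, and 0 passed an unadjusted p of 0.05 in either direction. Insig2, which retains SREBP in the endoplasmic reticulum, read 38.3, 24.7 and 20.7 FPKM in ACSS2-HKO and 7.95, 19.9 and 23.2 FPKM in ACSS2-flox, so that 1 control and 1 ACSS2-HKO library made most of its log2 fold change of 0.76 ± 0.39 (limma adjusted p = 0.670). Nfya, an NF-Y subunit gene, had 0.53 ± 0.23 without overlap and Bhlhe40, a clock-linked repressor gene, -0.44 ± 0.25 with overlap (limma adjusted p = 0.649 and 0.692). Of the 21, 4 were higher without overlap, Nfya among them, against 12.5% of all genes. Of the 12 genes of ChREBP partners and sugar handling 6 were negative, with a median of -0.03 and 0 at an unadjusted p under 0.05. Of the same list, the glucose transporter gene Slc2a2 had -0.29 ± 0.22 and Pfkfb1, which sets a glycolytic signal, 0.26 ± 0.38. Of 15 insulin and AMPK signalling genes 5 were negative, with a median of 0.08 and 0 at an unadjusted p under 0.05. Akt1, Mtor and Prkab1 had 0.43 ± 0.23, 0.30 ± 0.22 and 0.22 ± 0.21. Without ACSS2-flox replicate 1 the 3 medians were -0.10 (13 of 21 negative), -0.25 (10 of 12 negative) and -0.07 (9 of 15 negative), and without ACSS2-flox replicate 3 they were 0.12, 0.16 and 0.22. With median-ratio scaling they were -0.05, -0.19 and -0.04, beside -0.04 for all genes.

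Genes beside and downstream of the set were mixed. Among 5 tested genes of malonyl-CoA and ACC control, 4 were negative and the median was -0.08. Hlcs, which attaches biotin to the carboxylases, was higher in every ACSS2-HKO library at 1.97, 1.60 and 2.24 FPKM, against 1.03, 1.15 and 1.12 FPKM in ACSS2-flox (log2 fold change 0.48 ± 0.16, limma adjusted p = 0.637). Over all genes tested, 12.5% were higher without overlap. Mid1ip1, the relative of Thrsp, had -0.54 ± 0.47, and Mlycd, which breaks malonyl-CoA down, -0.20 ± 0.25. Of 17 glycerolipid synthesis genes 8 were negative and the median was 0.03. At an unadjusted p under 0.05, 1 was lower (Acsl1, -0.61 ± 0.23) and 1 higher (Lpin3, 0.46 ± 0.17), against 1.5% and 6.09% of all genes. Lpin3 averaged 0.797 FPKM in ACSS2-flox and passed the filter only through ACSS2-HKO. Acsl3 had -0.41 ± 0.19. Of 8 Pnpla family and lipase genes 3 were negative, with a median of 0.12. Pnpla6 had 0.52 ± 0.22, Lipe 0.41 ± 0.21 and Mgll -0.49 ± 0.25. Of the 8, only Pnpla6 was higher at an unadjusted p under 0.05, against 6.09% of all genes, and 0 were lower. Genes that fasting raises were negative in 10 of 12, with a median of -0.39 and 0 at an unadjusted p under 0.05. This median was -0.13 without ACSS2-HKO replicate 3, -0.15 without ACSS2-flox replicate 2, -0.25 without ACSS2-flox replicate 3 and -0.60 without ACSS2-flox replicate 1. Of this list, Angptl4 stood at -0.65 ± 0.32, Tat at -0.56 ± 0.35 and Vnn1 at 0.41 ± 0.22. Leaving out single libraries moved the median between -0.26 (ACSS2-HKO replicate 1) and 0.04 (ACSS2-flox replicate 1) for malonyl-CoA and ACC control, between -0.20 (ACSS2-flox replicate 1) and 0.11 (ACSS2-flox replicate 3) for glycerolipid synthesis, and between 0.01 (ACSS2-flox replicate 1) and 0.24 (ACSS2-HKO replicate 3) for the lipases. No gene of these lists passed limma after adjustment over all genes.

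Several marker lists of other cells differed in level between the groups beside these genes, with no marker past limma after adjustment, and in bulk liver fewer cells of a type and less RNA per cell cannot be told apart. Kupffer cell and macrophage markers were positive in 12 of 12 tested and higher at an unadjusted p under 0.05 in 10, against 6.09% of all genes, with summed levels of 884 to 2186 FPKM in ACSS2-HKO and 466 to 757 FPKM in ACSS2-flox over the 14 listed. All 5 tested neutrophil markers were positive and 3 were higher by the same test, with sums of 39.9 to 363 FPKM in ACSS2-HKO and 8.46 to 18.2 FPKM in ACSS2-flox over the 13 listed. The other 8 lay under the filter. Retnlg, Csf3r and Mmp9 passed it only through their ACSS2-HKO values, so the filter favoured their positive direction. All 22 acute phase genes were positive and 15 were higher, with sums of 16090 to 56906 FPKM in ACSS2-HKO and 10441 to 12563 FPKM in ACSS2-flox. Both myeloid lists and the acute phase list were highest in ACSS2-HKO replicate 3, which also held the lowest Mlxipl, Me1, Thrsp and Gpam. Their part in the values of the 10 genes was not tested. Hepatocyte markers were negative in 7 of 11, with 1 lower at an unadjusted p under 0.05 (against 1.5% of all genes). Their sums were 56645 to 65210 FPKM in ACSS2-HKO and 94893, 69221 and 63008 FPKM in ACSS2-flox replicates 1, 2 and 3, mostly Alb. Without overlap, 2 of the 11 were lower and 1, Tdo2, was higher, against 2.94% and 12.5% of all genes. Endothelial markers, 0 of 9 past that p, summed to 165 to 196 FPKM in ACSS2-HKO, against 59.5 FPKM in ACSS2-flox replicate 1 and 216 and 254 FPKM in ACSS2-flox replicates 2 and 3. Fat cells also express Fasn, Acaca and Thrsp. The summed level of 7 adipocyte markers, 402 to 707 FPKM in ACSS2-HKO and 1068 to 1991 FPKM in ACSS2-flox, came mostly from Car3, which liver cells also make, and of 3 tested 1 was lower and 1 higher at that p. Adipoq did not exceed 0.0241 FPKM and Plin1 0.0145 FPKM in any library. Of the remaining lists, stellate cell and fibroblast markers were positive in 7 of 10 and higher at that p in 4. Cholangiocyte markers were positive in 2 of 2, with 6 more under the filter, and B and T cell markers in 3 of 4, with 5 more under it. In both, 0 passed that p. Pdgfrb and Cd79a passed the filter only through their ACSS2-HKO values. Over all genes tested, only 34% were negative, so most genes were positive too.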

How the data were processed

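Whole-liver RNA of 3 ACSS2-HKO and 3 ACSS2-flox libraries was analysed. The authors deposited a table of FPKM values per gene. Per the labels' protocols, a VAHTS Universal V6 kit served for library preparation. The submitters' processing notes name mm10 and DESeq2 without a role. The sources used here do not give the aligner, counter, annotation or filters. Values are shares of a library. Whole fragment counts and library totals were recovered from the FPKM values within 0.01 of a whole number for 16129 genes (99.96%). These counts contribute depth and the voom alternative only.

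The 9818 genes whose mean reached 1 FPKM were tested on log2(FPKM + 1) with limma 3.58.1 in R 4.3.3 (trend, two-sided, Benjamini-Hochberg, threshold 0.05), checked on simulated counts. A pseudocount of 1 understates changes of low genes. Alternatives covered pseudocounts, filters, scalings, voom, a replicate block and left-out libraries. The 10 genes and all lists were chosen with earlier results of these data known. Beyond the 10 genes and Acss2, the text names the 3 genes of smallest p per pathway list (of which 1 is not reported here) and the 8 nearest profiles; markers were named after their values were seen. Positions are GENCODE M21, promoters RefSeq.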

Additional observations from a re-analysis of the deposited data

How the results depend on the processing

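The direction of Srebf1, Acacb, Fasn, Me1, Thrsp, Pklr, Gpam and Pnpla3 was the same under all 16 alternatives that could be run for them, and no gene of the set passed the adjusted threshold in any. With single libraries left out, Acaca ran from -0.985 to 0.534 and turned positive in 4 of 6 cases, and Mlxipl ran from -0.699 to 0.082 and turned positive without ACSS2-HKO replicate 3. The cause was not tested. The median of the 10 genes lay between -0.769 and -0.273 without single libraries, from -0.598 to -0.341 with other settings, and was -0.492 without both ACSS2-flox replicate 1 and ACSS2-HKO replicate 3. Genes past an unadjusted p of 0.05 numbered 745, but 1129 with no filter and 430 with a filter at 5 FPKM, where more or fewer genes are tested, and 356 to 962 with single libraries left out (356 without ACSS2-HKO replicate 3). Genes past the adjusted p numbered 0 to 3 without single libraries (3 without ACSS2-HKO replicate 2). With the replicate block, 4 genes passed. The titles share only numbers, and the labels do not say whether same-numbered libraries were paired. Over all tested genes, deviations of same-numbered libraries correlated at 0.013, 0.003 and -0.063. Such correlations cannot decide whether the libraries were paired, and the main fit uses no pairing. Pnpla3 could not be fitted at 5 FPKM. With 3 libraries a group, intervals of most of the genes span more than a 2-fold change.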
